A study of Mus musculus with 18 samples.

Results

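Zbtb20, Lncpint, Cpne4, Als2cl and St8sia1 are 5 genes that were followed across regulatory T cells (Tregs) of NOD mice. They were chosen by their log2 intensities on the spleen arrays, for lower levels in Tregs tagged around birth than in adult-tagged and untagged Tregs, and they are 5 of the 19752 genes with a probe set of 1 symbol on the array. Because the spleen arrays chose them, their spleen values are given as descriptions without a test, and the thymus arrays, which the choice did not use, carry the tests. Tregs are CD4+ T cells that hold immune responses in check under control of the transcription factor Foxp3, and NOD is a strain that develops autoimmune diabetes.

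The 18 arrays form 6 groups of 3. In 4 groups, Tregs were sorted on a FACSAria from spleens of female mice aged 60 days that carried Foxp3-eGFP-Cre-ERT2 and Rosa26-YFP. In these mice the Foxp3 locus drives GFP and a tamoxifen-activated recombinase, so a cell that expresses Foxp3 during treatment, and its progeny, stays YFP+. Perinate-tagged cells (GFP+YFP+) came from mice given 4 tamoxifen injections between days 0 and 10, and adult-tagged cells (GFP+YFP+) from mice given 4 between days 35 and 45. The untagged cells (GFP+YFP-) are the bulk Tregs of perinate-treated and of adult-treated mice. The other 2 groups are CD4+ GFP+ thymic Tregs of Foxp3-GFP males, sorted on a MoFlo at 4 days (perinate thymus) or 5 weeks of age (adult thymus). All 6 groups share the NOD background, and the 4 spleen groups also share tamoxifen treatment. Tagging marks only cells that expressed Foxp3 in the window, and the untagged bulk is of unknown age of origin. Adult-tagged cells may thus include Tregs that arose before day 35. All spleen cells were sorted at 60 days, so age at tagging and time since tagging cannot be told apart. The labels do not say whether replicates were separate animals or pools, so the p-values below measure only the spread between these samples.

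Zbtb20 encodes a transcriptional repressor of the BTB zinc-finger family, which pairs a protein-binding BTB domain with DNA-binding zinc fingers. Family members such as Bcl6, Zbtb7b and Zbtb16 are known as lineage regulators of mouse lymphocytes. Lncpint is a long noncoding RNA that in mouse cells is induced by p53 and binds Polycomb repressive complex 2, an enzyme complex that sets a repressive histone mark. Cpne4 is a copine, a protein that binds phospholipid membranes in the presence of calcium. Als2cl is related to alsin, an exchange factor for the endosomal GTPase Rab5. St8sia1 is the sialyltransferase that makes the ganglioside GD3.

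The sequence before the start of 3 of the genes is shown because these are the 3 whose perinate-tagged arrays lay below the 9 other spleen arrays. Each is the 250 bases upstream of the first start that RefSeq lists (GRCm38.p6), written 5′ to 3′ on the gene's strand, with matches to searched motifs in capitals. The windows are chr16:43247034-43247283 (plus strand), chr6:31218475-31218724 (minus strand) and chr9:104569405-104569654 (plus strand).
Zbtb20: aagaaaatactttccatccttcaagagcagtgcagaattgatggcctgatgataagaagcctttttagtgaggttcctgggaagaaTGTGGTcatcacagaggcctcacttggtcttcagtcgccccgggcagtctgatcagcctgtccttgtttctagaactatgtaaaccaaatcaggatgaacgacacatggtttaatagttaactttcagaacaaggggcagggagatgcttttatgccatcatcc
Lncpint: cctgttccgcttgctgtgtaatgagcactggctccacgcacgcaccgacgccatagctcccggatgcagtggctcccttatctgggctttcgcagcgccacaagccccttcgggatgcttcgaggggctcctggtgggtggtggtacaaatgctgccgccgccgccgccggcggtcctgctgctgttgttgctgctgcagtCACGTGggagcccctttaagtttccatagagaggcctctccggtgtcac
Cpne4: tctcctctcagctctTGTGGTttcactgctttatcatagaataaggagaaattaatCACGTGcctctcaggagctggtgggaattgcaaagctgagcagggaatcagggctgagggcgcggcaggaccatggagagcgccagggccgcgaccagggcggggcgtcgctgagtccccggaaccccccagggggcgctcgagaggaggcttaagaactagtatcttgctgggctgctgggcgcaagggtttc
The motifs searched on both strands were TGTTTAC (forkhead), TGTGGT (RUNX), CCGGAAG (ETS) and CACGTG (E-box). They occur in 3.17%, 14%, 6.91% and 6.02% of the 32851 upstream windows of this length. The Zbtb20 window holds 1 TGTGGT at position -164, the Lncpint window 1 CACGTG at -49, and the Cpne4 window TGTGGT at -235 and CACGTG at -194, counted to the motif's first base from the gene start. No motif was found in the windows of Als2cl and St8sia1. Such a match is a description of letters, not of a bound site. Als2cl starts head to head with Tmie, a gene of a membrane protein known from inner-ear hair cells. The 100 bases before the Als2cl start toward Tmie, chr9:110880074-110880173 on the plus strand, are shown because both genes are described below.
Als2cl-Tmie: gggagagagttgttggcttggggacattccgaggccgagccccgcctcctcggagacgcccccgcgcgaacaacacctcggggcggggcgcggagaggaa
That stretch of 100 bases has 71.0% G and C. The 250-base Als2cl window that ends at the same base has 67.2%, against a median of 52.4% over the upstream windows of that length.

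Values below are log2 intensities, where 1 unit is a 2-fold change. Each ± after a difference is its standard error (SE) from limma, and each ± after a mean is the SD. The Treg label held on the arrays: Foxp3 lay between 11.88 and 12.40 on the 18 arrays. One array went against its label of female sex: on perinate-tagged replicate 2 the Y-linked Eif2s3y read 9.79 and Xist 8.38. The 11 remaining spleen arrays had Eif2s3y at 3.95 to 4.90 and Xist at 11.86 to 12.41. The male thymus arrays had Eif2s3y at 9.73 to 10.04 and Xist at 5.70 to 6.30, so Xist of perinate-tagged replicate 2 lay between the sexes. Transcripts absent by sex read between 3.95 and 6.30, which serves here as the range of background. The spread of values within an array, its interquartile range, was 2.94 to 3.12 for perinate-tagged and 2.49 to 2.88 for adult-tagged cells, and in thymus 3.00 to 3.06 for perinates and 2.08 to 2.82 for adults. Mki67, a gene of dividing cells, was 10.86 to 11.03 for perinate-tagged and 7.83 to 8.76 for adult-tagged cells, and in thymus 10.54 to 10.69 for perinates and 8.94 to 8.97 for adults. The part of array spread and of Mki67 in the results below was not tested beyond a fit with array spread as a covariate.

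Zbtb20 had its lowest levels in perinate-tagged spleen cells and in perinate thymus. It read 8.5, 8.14 and 8.01 in perinate-tagged cells, against 9.68, 10.01 and 9.78 in adult-tagged cells. The untagged cells of perinate-treated mice had 9.80, 9.24 and 9.41, and those of adult-treated mice 9.77, 9.47 and 9.31. The 3 perinate-tagged arrays lay below the 9 other spleen arrays, while the ranges of the other 3 spleen groups overlapped. The difference of perinate-tagged from adult-tagged cells was -1.61 ± 0.18, a 3.05-fold distance and the fifth lowest of the 10350 genes that passed the filter on low values in spleen. Against untagged cells the difference was -1.27 ± 0.18 in perinate-treated and -1.30 ± 0.18 in adult-treated mice. In bulk RNA of sorted cells, a smaller share of expressing cells and less RNA per cell cannot be told apart.

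In the thymus, Zbtb20 read 8.80, 8.67 and 8.65 in perinates, against 9.85, 9.77 and 9.93 in adults. The groups did not overlap, and the perinate values sat between the perinate-tagged spleen values and those of the other spleen groups, although sex, sorter and age differ between the tissues. The difference was -1.14 ± 0.11 (limma adjusted p = 0.000763, 95% interval -1.40 to -0.89), so Zbtb20 was 2.21-fold lower in perinate thymus. A second probe set of the gene had the same order: its means were 8.04 ± 0.15 (SD) in perinate-tagged, 9.37 ± 0.08 in adult-tagged, 8.53 ± 0.21 in perinate thymus and 9.50 ± 0.16 in adult thymus (n = 3 each). In the order of the 6 group means, perinate-tagged cells (8.21) came lowest and perinate thymus (8.71) next, each apart from its next higher neighbour. The 4 upper groups, up to adult thymus (9.85), overlapped between neighbours.

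Lncpint had the largest thymus difference of the 4 tested there. It read 9.58, 9.69 and 9.18 in perinate-tagged cells, against 11.15, 10.95 and 11.08 in adult-tagged cells. The untagged cells had 10.90, 10.59 and 10.93 after perinate and 10.66, 10.96 and 10.99 after adult treatment. All 3 perinate-tagged arrays were below the 9 others, and the 3 other spleen groups overlapped between neighbours. The differences of perinate-tagged cells were -1.58 ± 0.15 from adult-tagged cells, a 2.98-fold distance, and -1.32 ± 0.15 and -1.39 ± 0.15 from the untagged cells after perinate and after adult treatment.

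The thymus values of Lncpint were 8.79, 8.55 and 8.48 in perinates, against 10.39, 10.63 and 10.28 in adults. Perinate thymus was the lowest of the 6 groups, below perinate-tagged spleen cells without overlap. The thymus difference was -1.83 ± 0.14 (limma adjusted p = 0.000331, 95% interval -2.15 to -1.5), which is 3.55-fold lower in perinates and the 21st lowest of 10650 genes tested. Adult thymus, with a mean of 10.43, overlapped the untagged cells of perinate-treated mice at 10.80.

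**Figure D1:**
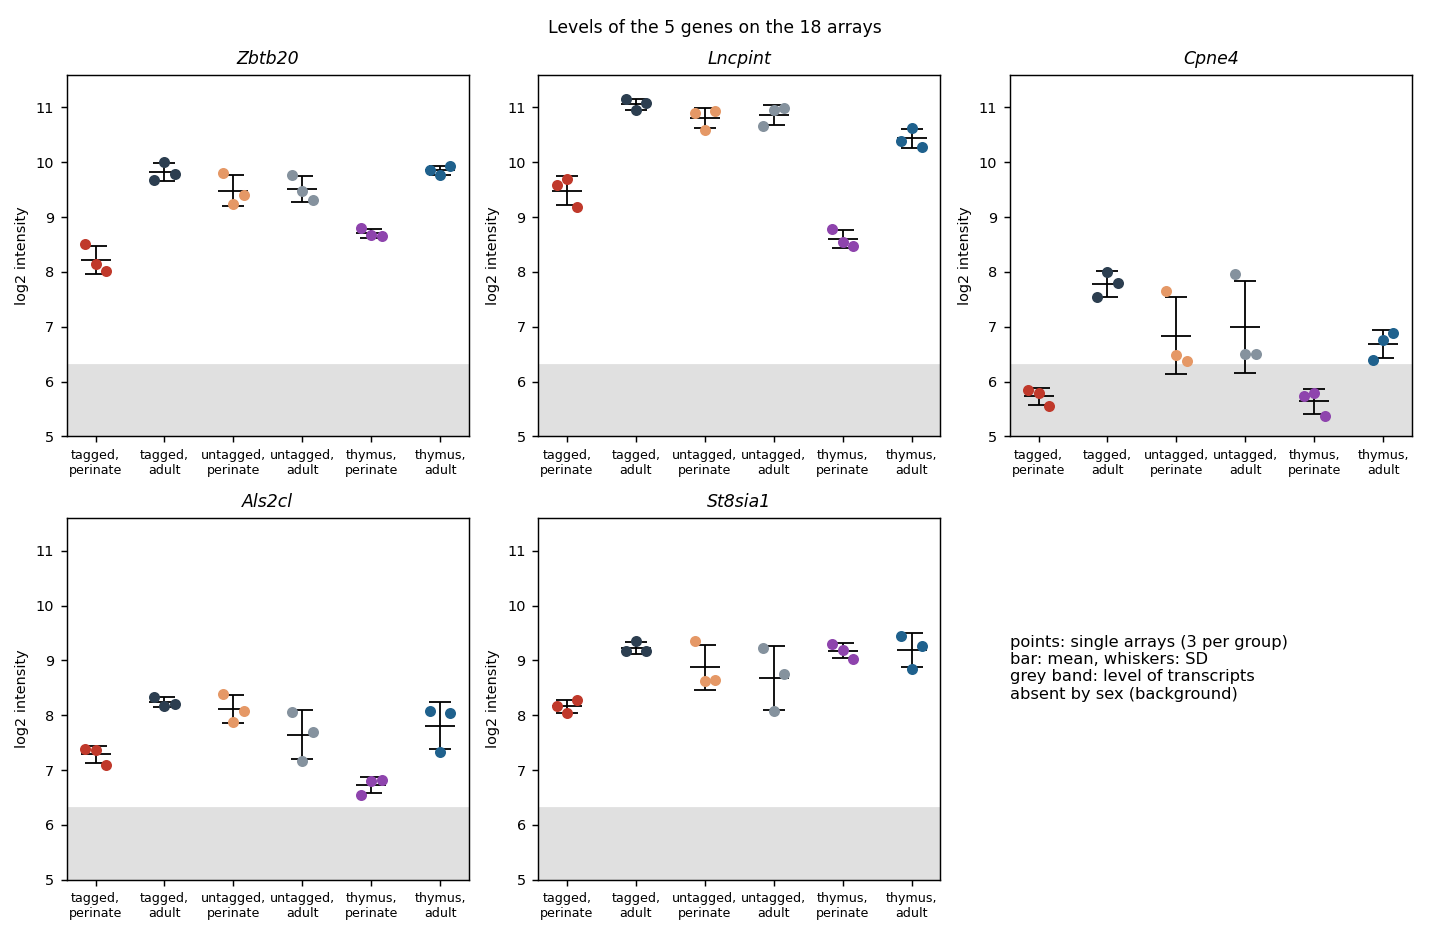
Log2 intensity (y axis) of each of the 5 genes on the 18 arrays by group, with points for single arrays, bars for the mean, whiskers for the SD (n = 3) and a grey band for the background of 3.95 to 6.30. Perinate-tagged arrays lie below the 9 other spleen arrays for Zbtb20, Lncpint and Cpne4, and the thymus groups of St8sia1 overlap.

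Cpne4 was near background where it was low. It read 5.84, 5.79 and 5.56 in perinate-tagged cells, inside the background range, against 7.54, 8.00 and 7.80 in adult-tagged cells. The untagged cells had 7.65, 6.48 and 6.38 after perinate treatment and 7.96, 6.51 and 6.5 after adult treatment. In both untagged groups replicate 3 was the high array and the other 2 lay close to 6.5. The perinate-tagged arrays were below the 9 others, with a difference of -2.05 ± 0.35 from adult-tagged cells, the second lowest of 10350 genes. Since the perinate-tagged level is at background, the size of that difference is a lower bound.

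Cpne4's distance to untagged cells was smaller without their replicate 3 arrays. The difference was -1.11 ± 0.35 from perinate-treated and -1.26 ± 0.35 from adult-treated untagged cells. Without replicate 3 of the untagged group it was -0.70 and -0.77. Cpne4 passed the filter on low values in spleen through adult-tagged cells alone, and it did not pass in the thymus. There it read 5.73, 5.80 and 5.38 in perinates, at background, against 6.39, 6.76 and 6.88 in adults, with no overlap. Fitted with no filter, the thymus difference was -1.04 ± 0.17 (limma adjusted p = 0.0072), and in a fit of all 18 arrays -1.04 ± 0.33 (limma adjusted p = 0.0232). The fit of 18 arrays kept Cpne4 only through adult-tagged spleen cells, values that chose the gene, so nothing is read from its p. With the perinate level at background, the size of the thymus difference is a lower bound too.

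Als2cl stood below adult-tagged and perinate-treated untagged cells without overlap, and below adult-treated untagged cells by mean with 1 array overlapping. It read 7.38, 7.37 and 7.10 in perinate-tagged cells, against 8.34, 8.17 and 8.20 in adult-tagged cells. The untagged cells had 8.38, 7.87 and 8.08 after perinate treatment and 8.06, 7.17 and 7.70 after adult treatment. Of these, adult-treated replicate 4 fell within the perinate-tagged range. Its differences were -0.95 ± 0.19, -0.82 ± 0.19 and -0.36 ± 0.19 in that order of groups, and the last was -0.15 without replicate 3 of the adult-treated untagged cells.

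In the thymus Als2cl read 6.55, 6.80 and 6.81 in perinates, against 8.07, 7.32 and 8.04 in adults, without overlap. Adult replicate 2, which also had the narrowest spread of values of the 18 arrays, was the lowest adult array. The difference was -1.09 ± 0.21 (limma adjusted p = 0.0100, 95% interval -1.57 to -0.61), or 2.13-fold in size. Als2cl passed the thymus filter only through the adult group, where it is high, so the call is not counted with those of Zbtb20 and Lncpint. With no filter the adjusted p was 0.0118, and without perinate replicate 1 the adjusted p was 0.0605 at a difference of -1.01. A second Als2cl probe set read between 4.78 and 5.64 on all arrays, at background, so the gene rests on 1 probe set.

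St8sia1 passed the filter in both thymus groups and was not called in the thymus. In spleen it read 8.16, 8.04 and 8.28 in perinate-tagged cells, against 9.17, 9.36 and 9.17 in adult-tagged and 9.35, 8.63 and 8.65 in perinate-treated untagged cells. The untagged cells of adult-treated mice had 9.23, 8.07 and 8.76, so their replicate 4 lay within the perinate-tagged range. For St8sia1, as for Als2cl, the 3 perinate-tagged arrays lay below 8 of the 9 other spleen arrays, so the description of low in perinate-tagged cells alone holds for neither. The differences were -1.07 ± 0.24, -0.72 ± 0.24 and -0.53 ± 0.24 in that order, and the last 2 were -0.48 and -0.25 without replicate 3 of the untagged group.

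In the thymus St8sia1 read 9.30, 9.19 and 9.03 in perinates and 9.44, 8.84 and 9.27 in adults, with full overlap. The difference was -0.00 ± 0.17 (limma adjusted p = 0.989, 95% interval -0.40 to 0.39). Both thymus groups overlapped adult-tagged spleen cells (mean 9.23) and lay above the perinate-tagged arrays. With array spread as a covariate the thymus difference was -0.38 (limma adjusted p = 0.0722).

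**Figure D2:**
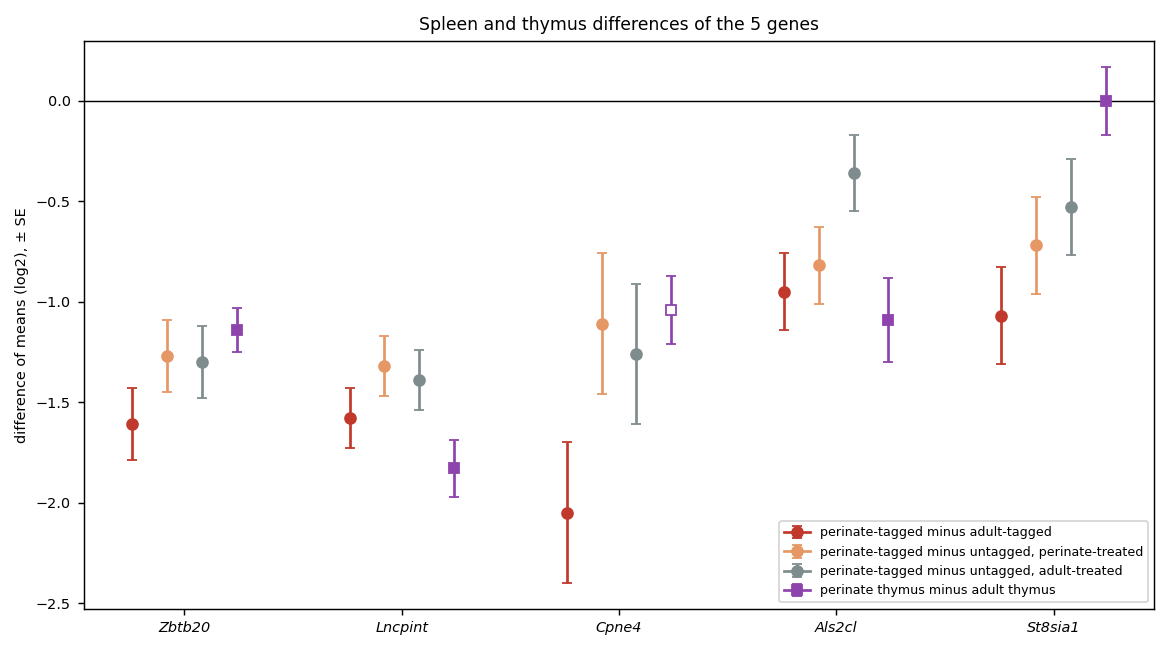
Difference of group means (log2, y axis) with its SE for each of the 5 genes, as circles for perinate-tagged cells minus each other spleen group (values that chose the genes) and squares for perinate minus adult thymus. Squares of Zbtb20, Lncpint and Als2cl lie at -1.09 or below, that of St8sia1 at 0, and the open square of Cpne4 marks a fit with no filter.

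The 3 spleen differences share the perinate-tagged arrays, so their likeness to each other is no separate result. In spleen, 3.50% of genes were lower and 16.0% higher in perinate-tagged than in adult-tagged cells by limma at an adjusted p of 0.05, and 12.7% had perinate-tagged arrays below the adult-tagged ones without overlap. Against the untagged cells after perinate treatment 1.86% were lower, 5.49% higher and 12.3% without overlap, and after adult treatment 1.90%, 9.89% and 6.59%. The choice of the 5 genes fixed their lack of overlap with adult-tagged cells, so nothing is read from it. In the thymus, 622 of 10650 genes were lower in perinates (5.84%) and 1967 higher (18.5%), and 16.7% had no overlap with perinates lower. Zbtb20 and Lncpint, which passed the filter in both thymus groups, were called lower, and St8sia1 was not called. With quantile normalization 53.8% of the thymus calls were higher, against 76.0% as deposited, and in spleen 54.3% against 82.1%. The median difference of all genes was 0.17 in thymus and 0.12 in spleen as deposited, -0.003 and -0.039 after quantile normalization and 0.29 and 0.18 after median centring. The sign of the spleen differences of all 5 members, and of the thymus differences of Zbtb20, Lncpint and Als2cl, was the same under each scaling.

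Leaving out perinate-tagged replicate 2, the array that went against its sex label, kept the direction of the members. Without it the differences from adult-tagged cells were -1.75 for Zbtb20, -1.62 for Lncpint, -2.10 for Cpne4, -1.0 for Als2cl and -1.08 for St8sia1. Against untagged cells of perinate-treated mice they were -1.41, -1.37, -1.16, -0.87 and -0.72 in the same order of genes, and against those of adult-treated mice -1.44, -1.43, -1.31, -0.41 and -0.53. None of these moved by as much as the spread between replicates.

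The 2 control comparisons without perinate-tagged cells show where the 5 genes differ among the other spleen groups. Adult-tagged minus adult-treated untagged cells gave 0.31 ± 0.18 for Zbtb20, 0.19 ± 0.15 for Lncpint, 0.79 ± 0.35 for Cpne4, 0.59 ± 0.19 for Als2cl and 0.55 ± 0.24 for St8sia1. Adult-tagged cells were thus the highest spleen group for the 5 genes by mean, and Cpne4 ranked 10322 of 10350 in this difference, counted from the lowest. Untagged cells of perinate-treated minus adult-treated mice differed by -0.04, -0.07 and -0.15 for Zbtb20, Lncpint and Cpne4, within the SE, and by 0.46 ± 0.19 and 0.19 ± 0.24 for Als2cl and St8sia1. With the replicate number as a block, in a fit of the untagged arrays alone, the SE was ± 0.15 for both Als2cl and St8sia1. Same-numbered untagged arrays deviated together for numbers 3 and 5 (r = 0.63 and 0.48). Number 4 gave 0.16, below the 0.26 and 0.32 between arrays 4 and 5, so pairing by number is unclear for it. Within pairs 3, 4 and 5, perinate-treated minus adult-treated, Als2cl differed by 0.31, 0.69 and 0.38 and Cpne4 by -0.31, -0.03 and -0.11, each of 1 sign.

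Markers of other cells ranged over the arrays from background to high levels. Of the CD8 T and NK cell list (7 of 7 on the array) the summed linear intensity was 2810 to 3552 in perinate-tagged and 1076 to 1449 in adult-tagged cells. Nkg7, a granule protein gene, was the 1 gene of that list called higher (11.30 in perinate-tagged against 9.44 in adult-tagged cells), while Ncr1, Klrb1c and Klrd1 were at background. The B cell list (9 of 10) summed to 1158 to 1370 on perinate-tagged arrays, against 995 to 1026 on adult-tagged arrays, with a Cd79b mean of 9.55 for perinate-tagged arrays against 8.89 for adult-tagged arrays, and 5 genes, Ms4a1 and Cd79a among them, at background. In the thymus the immature thymocyte list (8 of 8) summed to 1994 to 2072 in perinates and 2538 to 2927 in adults, with Cd8a at 9.75 in perinates and 10.36 in adults and Rag2 and Dntt at background. Of the remaining lists (plasma, myeloid, dendritic, erythroid, stromal and epithelial cells), limma called Irf4, Cd68, Bst2 and Epcam higher in perinate-tagged than in adult-tagged cells. In the thymus it called Irf4 and Pecam1 higher and Bst2 lower in perinates, and of 7 Treg genes Il2ra was lower in perinate-tagged cells. The part of these cells in the members' differences was not tested.

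The closest patterns over the 18 arrays were found by Pearson correlation among 10309 genes, as a description, since arrays of 1 group share their sample type. Zbtb20 was most like Nr1d1 (r = 0.93), a circadian repressor, Znrf3 (0.93), a ubiquitin ligase for Wnt receptors, and Slc49a4 (0.93). With group means removed, r was 0.84, 0.70 and 0.52. Lncpint was most like Dglucy (0.94), Pde4b (0.93), a phosphodiesterase of cyclic AMP, and Ust (0.93), but within groups r was only -0.01, 0.28 and 0.15. For Lncpint the likeness therefore lay in the group levels and not in single arrays.

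Cpne4 was most like Slc16a5 (r = 0.93), a monocarboxylate transporter, Mdc1 (0.91), a mediator of the DNA damage checkpoint, and Il6st (0.89), the shared receptor chain gp130. Within groups r was 0.89, 0.66 and 0.89. Als2cl was most like Irak3 (0.93), an inhibitor of Toll-like receptor signalling, Cyria (0.92) and Zfp831 (0.91), with 0.71, 0.74 and 0.58 within groups. St8sia1 was most like Ntn4 (0.93), a netrin, Gpr83 (0.92), a receptor known in mouse Tregs, and Patj (0.92), a polarity scaffold, with 0.83, 0.88 and 0.80. Gpr83 had means of 10.51 in perinate-tagged, 11.52 in adult-tagged, 11.28 in perinate thymus and 11.53 in adult thymus. For Zbtb20, Cpne4, Als2cl and St8sia1, replicate 3 was the highest array of both untagged groups. Its part in their r within groups was not tested.

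**Figure D3:**
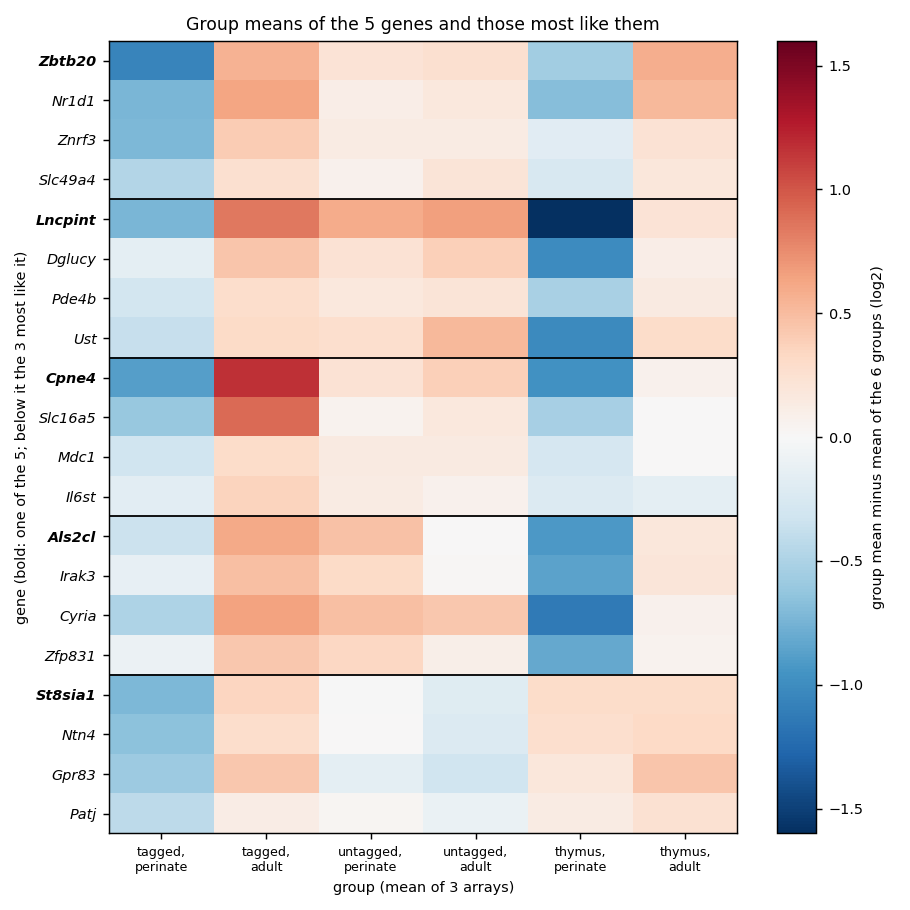
Group means minus the mean of the 6 groups (log2, colour; blue below, red above) for each of the 5 genes, in bold, and the 3 genes most like it by Pearson correlation over 18 arrays. Perinate-tagged is the lowest group for Zbtb20 and St8sia1, and perinate thymus for Lncpint, Cpne4 and Als2cl.

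Among the 5 genes themselves, the pairs Zbtb20 and Cpne4 (r = 0.83), Lncpint and Als2cl (0.83) and Cpne4 and Als2cl (0.81) were most alike over the 18 arrays. Lncpint and St8sia1 were least alike (0.08). With group means removed, the highest pairs were Als2cl with St8sia1 (0.79), Zbtb20 with Cpne4 (0.78) and Cpne4 with St8sia1 (0.71). For these 4 genes replicate 3 was the highest array of both untagged groups, and its part in these pairs was not tested. Lncpint stood apart, with 0.05, -0.14, -0.23 and -0.31 to the other 4. Against Mki67 the 5 genes had r of -0.88 (Zbtb20), -0.74 (Lncpint), -0.83 (Cpne4), -0.77 (Als2cl) and -0.58 (St8sia1). Within groups these were -0.19, 0.03, -0.44, -0.43 and -0.40.

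Genes related to the 5 by family or pathway were called at shares near those of all genes in spleen. Of 104 such genes tested there, 20 were higher (19.2%) and 2 lower (1.92%) in perinate-tagged than in adult-tagged cells, against 16.0% and 3.50% of all genes. In the thymus 12 of 103 were higher (11.7%) and 8 lower (7.77%) in perinates, against 18.5% and 5.84%. After quantile normalization 11 were higher and 9 lower of 103 in spleen (10.7% and 8.74%, against 10.3% and 8.67% of all genes), and 7 higher and 18 lower of 104 in thymus (6.73% and 17.3%, against 11.5% and 9.88%), so the balance of directions below depends on the scaling. In the BTB zinc-finger family, 39 of 45 genes were tested in spleen, with 4 higher (10.3%, against 16.0% of all genes) and 0 lower (2 lower at an unadjusted p under 0.05) and a median of 0.06 against 0.12 over all genes. Of the 4, Zbtb33 and Zbtb6 were not called under 5 and 6 of 15 alternatives. Zbtb32, a repressor that curbs lymphocyte responses in mice, read 9.41, 9.19 and 9.36 in perinate-tagged cells, against 7.97, 7.80 and 7.90 in adult-tagged cells. That is 1.43 ± 0.12 higher (limma adjusted p = 2.82e-06), opposite in sign to Zbtb20, and it was also called against both untagged groups. Zbtb1, a gene needed for mouse lymphocyte development, was higher by 0.81 ± 0.13 (adjusted p = 0.000562). In the thymus 1 family gene was higher and 2 lower of 37 (2.70% and 5.41%, against 18.5% and 5.84% of all genes), with a median of 0.09 against 0.17. Zbtb34 was higher by 0.95 ± 0.12 (adjusted p = 0.0018), and Zbtb42 and Zbtb26 were lower, at -0.56 ± 0.12 and -0.53 ± 0.14 (adjusted p = 0.0169 and 0.0284), and were not called under 5 and 4 of 16 alternatives.

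Genes reported as targets of Zbtb20 gave 1 tested gene, Nfkbia, which was called in neither tissue, at differences of 0.28 in spleen and 0.29 in thymus, and Afp did not pass the filter. For the complex that Lncpint binds in mouse cells, of 11 Polycomb repressive complex 2 genes, 4 were higher (36.4%, against 16.0% of all genes) and 0 lower in perinate-tagged than in adult-tagged cells, with a median of 0.27 against 0.12 (1 lower at an unadjusted p under 0.05). After quantile normalization 3 were higher and 2 lower. Ezh2, the methyltransferase, read 10.93, 10.76 and 10.74 in perinate-tagged cells, against 10.00, 10.21 and 10.08 in adult-tagged cells, and was 0.71 ± 0.11 higher (limma adjusted p = 0.00062). In the thymus 3 of 11 were higher (27.3%, against 18.5%) and 0 lower, or 1 higher and 2 lower after quantile normalization, with Phf19, an accessory subunit, at 1.06 ± 0.14 (adjusted p = 0.00257). Phf19 had a mean of 7.02 in adult thymus and passed the filter there only through perinates.

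In the p53 pathway 6 of 14 genes were higher (42.9%, against 16.0% of all genes) and 0 lower in perinate-tagged than in adult-tagged cells, or 4 higher and 1 lower after quantile normalization, with a median of 0.38 against 0.12 (1 lower at an unadjusted p under 0.05). Sesn2, a stress-induced inhibitor of mTORC1, was higher by 0.90 ± 0.15 and Gtse1, a cell-cycle gene, by 0.91 ± 0.16 (limma adjusted p = 0.00103 and 0.0013). Neither was called with array spread as a covariate. In the thymus 1 of 15 was higher (6.67%, against 18.5%), Plk2 at 1.48 ± 0.18, and 2 were lower (13.3%, against 5.84%), the antiproliferative gene Btg2 at -0.67 ± 0.12 and Ccng1 at -0.64 ± 0.11 (adjusted p = 0.00168, 0.00701 and 0.00674). Plk2 had a mean of 6.11 in adult thymus, at background, so its size is a lower bound. It passed the thymus filter only through perinates, where it is high.

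The sialyltransferase and ganglioside list, relatives of St8sia1, had 5 genes higher and 2 lower of 22 in spleen (22.7% and 9.09%, against 16.0% and 3.50% of all genes), or 1 higher and 3 lower after quantile normalization, with a median of 0.15 against 0.12. St8sia6, a sialyltransferase of the same family as St8sia1, read 10.80, 10.50 and 10.42 in perinate-tagged cells, against 11.40, 11.54 and 11.48 in adult-tagged cells. It was lower in both tissues, at -0.89 ± 0.14 in spleen and -0.87 ± 0.14 in thymus (limma adjusted p = 0.000686 and 0.00523). B4galt5, which makes the lactosylceramide from which gangliosides are built, was higher by 1.36 ± 0.15 in spleen (adjusted p = 2.64e-05). In the thymus 4 genes were higher and 3 lower of 22 (18.2% and 13.6%, against 18.5% and 5.84%), or 2 higher and 5 lower after quantile normalization, with a median of 0.31 against 0.17. St3gal6 was lower, at -1.44 ± 0.13 there (adjusted p = 0.00058), with perinate values of 6.12, 6.08 and 6.4 near background, so that the size is a lower bound, and St6galnac1 was higher by 1.24 ± 0.20 (adjusted p = 0.00571).

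Of the copines, 3 of 7 on the array were tested. In spleen limma called 0 of them between perinate-tagged and adult-tagged cells (1 at an unadjusted p under 0.05), and Cpne3 was higher in perinate thymus by 0.44 ± 0.10 (adjusted p = 0.0212), a call lost under 5 of 16 alternatives. Of the alsin and Rab5 exchange genes, 1 of 14 was higher (7.14%, against 16.0% of all genes) and 0 lower in spleen, with a median of 0.14 against 0.12 and 0 lower at an unadjusted p under 0.05. The higher one was Eea1 at 1.23 ± 0.33 (adjusted p = 0.0182), which was not called under 7 of 15 alternatives, quantile normalization and array spread as a covariate among them. In the thymus 2 were higher and 1 lower (14.3% and 7.14%, against 18.5% and 5.84%). The lower one was Rin2, a Rab5 exchange factor, at 6.70, 6.79 and 6.65 in perinates, against 8.62, 8.76 and 8.65 in adults (-1.96 ± 0.11, adjusted p = 0.000114). Rin2 passed the thymus filter only through adults, where it is high. Over these lists limma called 22 genes in spleen, 25 without perinate-tagged replicate 2, and 5 with array spread as a covariate.

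**Figure D4:**
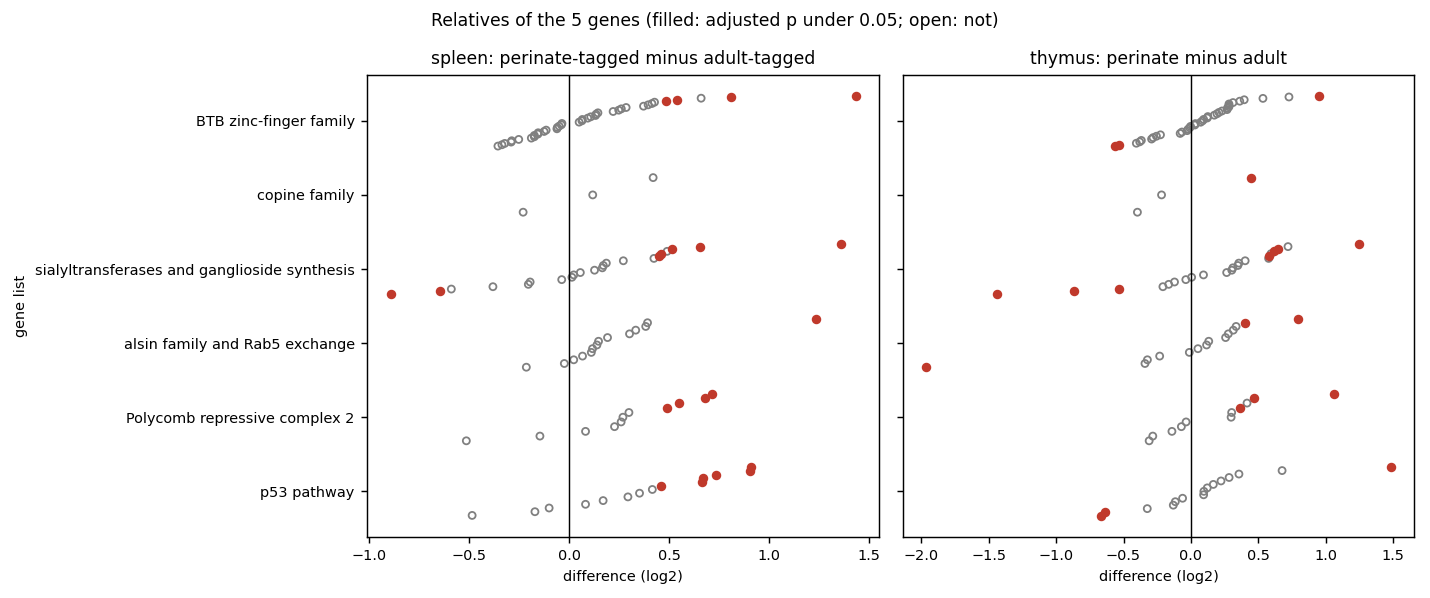
Differences (log2, x axis) of the family and pathway genes of the 5, by list, in spleen (perinate-tagged minus adult-tagged, left) and thymus (perinate minus adult, right). Filled points passed an adjusted p of 0.05, with 20 higher and 2 lower calls of 104 in spleen (11 and 9 of 103 after quantile normalization), where 82.1% of the calls over all genes were higher as deposited and 54.3% after quantile normalization.

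The nearest protein-coding genes on either side of each member were taken from the RefSeq gene order (GRCm38.p6). Next to Zbtb20, Tigit, an inhibitory receptor of Tregs, was higher by 2.39 ± 0.56 in perinate-tagged than in adult-tagged cells (limma adjusted p = 0.009) and lower in perinate thymus, at -2.09 ± 0.11 (adjusted p = 0.000114). Without perinate-tagged replicate 2 the spleen difference of Tigit was 2.24 (adjusted p = 0.0282). Against untagged cells Tigit was not called, at 0.43 ± 0.56 in perinate-treated and 0.17 ± 0.56 in adult-treated mice (adjusted p = 0.7 and 0.868). Next to Als2cl, Tmie had means of 6.79 in perinate and 8.10 in adult thymus, a difference of -1.31 ± 0.16 (adjusted p = 0.00191), and of 7.13 for perinate-tagged against 7.85 for adult-tagged cells (-0.72 ± 0.25, adjusted p = 0.0565). Tmie, like Als2cl, passed the thymus filter only through adults, where it is high, so its call is not counted beside Als2cl. Tdgf1, on the other side, was -0.51 in thymus (adjusted p = 0.0234). Next to Cpne4, Acpp was -0.63 (adjusted p = 0.0122) and Mrpl3 was 0.97 (adjusted p = 0.0467) in thymus. The neighbours of Lncpint, Klf14 and Mkln1, and C2cd5 next to St8sia1 passed in neither tissue. Gap43 next to Zbtb20 and Sult6b2 next to St8sia1 were below the filter.

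Other genes were also lowest in perinate-tagged spleen cells. In all, 302 of 10350 genes (2.92%) had the 3 perinate-tagged arrays below the 9 other spleen arrays, among them Zbtb20, Lncpint and Cpne4. With 2 arrays, leaving out perinate-tagged replicate 2, 719 of 10350 genes did. A rule on 2 arrays is easier to meet than one on 3, so nothing is read from the larger count. Of the 299 other genes, 291 were in the thymus fit, where 50 were lower (17.2%) and 10 higher (3.44%) in perinates, against 5.84% and 18.5% of all genes. Their median thymus difference was -0.20, against 0.17 over all genes. After quantile normalization, a repeat chosen after the values were seen, 80 of 288 were lower (27.8%) and 6 higher (2.08%) in perinates, against 9.88% and 11.5% of all genes. Array spread was wider in perinate-tagged than in adult-tagged cells and in perinate than in adult thymus, as given above, and its part in this count was not tested.

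**Figure D5:**
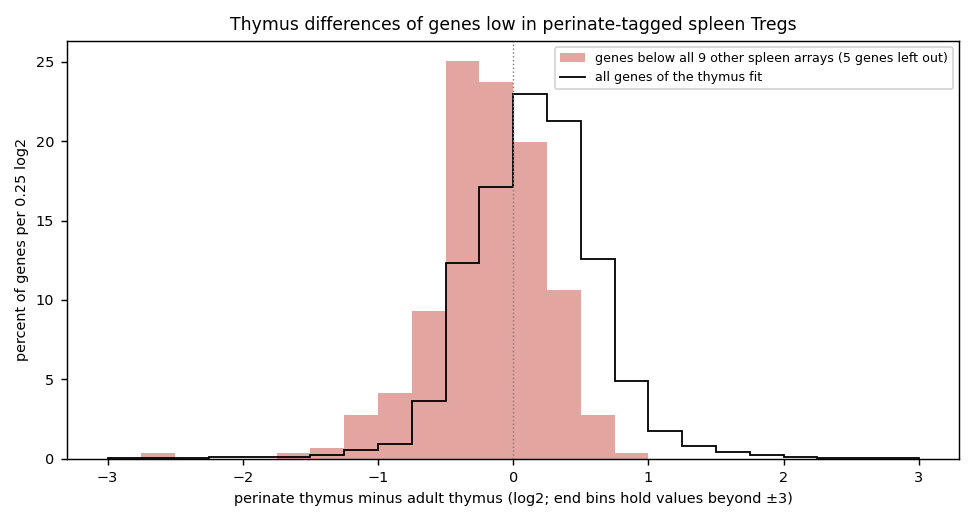
Percent of genes (y axis) per 0.25 log2 of the difference perinate minus adult thymus (x axis), for the genes below all 9 other spleen arrays with the 5 left out (shaded) and for all genes of the thymus fit (line). The shaded genes have a median of -0.20 and the line one of 0.17.

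At a distance of at least 1 log2 unit from each of the 3 other spleen groups, there were 7 genes, a rule chosen after the values were seen: Cpne4, Zbtb20, Lncpint, Il23r, Igf1r, Xkrx and Tgfbr3. Cpne4, at background in perinate-tagged cells, met the rule only with replicate 3 of the untagged groups. Without it the distances to untagged cells were -0.70 and -0.77. Il23r, a cytokine receptor chain, had differences of -1.84 from adult-tagged, -1.24 from perinate-treated untagged and -1.56 from adult-treated untagged cells, and of -2.57 in thymus (limma adjusted p = 0.000331). Xkrx was -0.93 in thymus (adjusted p = 0.00584). Igf1r, a growth factor receptor, and Tgfbr3, a co-receptor for TGF-beta, were -0.08 and 0.01 in thymus (adjusted p = 0.788 and 0.963). Like St8sia1, those 2 were not called in the thymus.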

How the data were processed

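RNA of sorted Tregs, extracted with TriZol and biotin-labelled per the labels, was hybridised to 18 arrays of the Affymetrix Mouse Gene 1.0 ST type. The deposited values are linear intensity per probe set, which the authors made with RMA in Affymetrix Power Tools, per the submitters' processing notes. Versions, genome build and the arrays normalized together are not given in the sources used here. The chimera arm of the study is not analysed here.

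Of 24922 probe sets, 21425 carry 1 gene symbol, 1399 several and 2098 none. The probe set with the highest mean stood for each of 19752 genes (921 had several). Values were log2 transformed with no pseudocount. Fits kept genes with 1 or more group means at or above the median of all values (132.7 linear, 7.05 log2), which left 10350 genes in spleen (12 arrays) and 10650 in thymus (6 arrays). Of the 5 genes, 5 passed in spleen and 4 in thymus.

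Differences came from limma 3.58.1 run in R 4.3.3, with lmFit and eBayes in a two-sided test, 1 coefficient per group and a fit per tissue. The p-values were adjusted by Benjamini-Hochberg over all genes fitted, and calls were made at 0.05. The fits were first checked on simulated arrays. An exact permutation test of 1 gene in groups of 3 reaches no p below 0.1. The number of arrays limits the precision. Sex, sorter, age and tissue cannot be told apart between spleen and thymus. The members, lists, tests and alternatives were chosen with earlier results of these data known.

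Named genes were the 5, the 3 most correlated with each, up to 4 per list and contrast by lowest adjusted p, and the nearest measured protein-coding gene on either side. Predicted genes and small RNAs were left out of the correlation search. Upstream sequences are from RefSeq (GRCm38.p6) and were matched by symbol for 5 of 5 genes.

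Pairing by replicate number was checked from the correlation of arrays with 1 number, after their group means were subtracted. Untagged arrays 3, 4 and 5 gave r of 0.63, 0.16 and 0.48, a pairing read from the data and not stated in the labels. With the number as a block, in a fit of the untagged arrays alone, 49 genes were called between the untagged groups. The fit of all 12 spleen arrays without a block called 0 (380 at an unadjusted p under 0.05). These fits differ in arrays and filtered genes as well as in the block, so the part of the block was not tested.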

Additional observations from a re-analysis of the deposited data

Results flagged for a closer look

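For 8 of 31 relatives of the 5 genes (25.8%), named because they were called in spleen or thymus, the spleen difference (perinate-tagged minus adult-tagged) and the thymus difference (perinate minus adult) were unequal in a fit of all 18 arrays, by limma's interaction test with adjustment over all genes. Of all 10889 genes 6.46% were unequal, and since the 31 were chosen for a call in 1 or both tissues, nothing is read from the higher share. Tissue is confounded with sex, sorter and age, so the source of the inequality cannot be told apart. Rin2 was 0.39 in spleen and -1.96 in thymus, an inequality of 2.36 (adjusted p = 1.42e-07). Zbtb32 was 1.43 in spleen and -0.28 in thymus, an inequality of 1.71 (adjusted p = 1.45e-06). Ccng1 was 0.35 and -0.64 in the same order of tissues, an inequality of 0.99 (adjusted p = 0.000505), and Btg2 was 0.08 and -0.67, an inequality of 0.75 (adjusted p = 0.0148). Zbtb34 was 0.06 and 0.95, an inequality of -0.89 (adjusted p = 0.00163). The inequality was 0.81 for Zbtb42 (adjusted p = 0.0264), 0.79 for Tnfrsf10b (adjusted p = 0.021) and 0.63 for Eed (adjusted p = 0.041).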

How the results depend on the processing

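Among the tested members, the thymus calls of Zbtb20 and Lncpint held under each of 16 alternatives, and St8sia1 was called under none of 16. Als2cl was not called without perinate thymus replicate 1, with a range of -1.33 to -0.96 when single arrays were left out. It gave no value when probe sets were averaged, since its mean then fell below the filter. The replicate block in the thymus, where same-numbered arrays gave r of -0.05, 0.06 and 0.12 and share only a number, left 2428 genes called and changed no member's call. In the untagged comparison the replicate block, in a fit of the untagged arrays alone, gave 49 genes. No block was fitted in the other spleen comparisons, where the replicate numbers overlap only in part. Perinate-tagged and perinate-treated untagged cells share numbers 4 and 5, and whether these arrays are paired was not tested. With array spread as a covariate, 385 genes were called between perinate-tagged and adult-tagged cells (2020 without it), 328 between perinate-tagged and adult-treated untagged cells (1221) and 1 between adult-tagged and untagged cells (28), with 5 list genes in the first (22). With array weights these counts were 5226 for perinate-tagged against adult-tagged, 3564 against perinate-treated untagged cells (760 unweighted), 50 for adult-tagged against untagged and 6089 in the thymus (2589). List genes called with weights were 56, 42 (15 unweighted) and 62 (20 unweighted) for the first, second and thymus comparisons. Between adult-tagged and untagged cells 17 genes were called with no filter and 99 in a fit of all 18 arrays. Leaving out single arrays gave 906 to 2052 genes for perinate-tagged against adult-tagged cells, 299 to 1001 against perinate-treated and 372 to 1821 against adult-treated untagged cells. It gave 0 to 774 for adult-tagged against untagged cells, 0 to 5 between the untagged groups and 707 to 4388 in the thymus. List genes ranged over 11 to 25, 5 to 13 and 9 to 37 in the first, second and thymus comparisons. The causes were not tested. By Spearman's rho, 1, 1, 0, 2 and 0 of the 3 genes most like Zbtb20, Lncpint, Cpne4, Als2cl and St8sia1 were shared with the Pearson choice. Fits of Cpne4 in thymus with no filter and another choice changed were added after seeing the data and ranged from -1.18 to -0.79. Levels near background limit what Cpne4 can show.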
